A study of Homo sapiens with 18 samples.

Results

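The C/D box small nucleolar RNAs (snoRNAs) outside the imprinted clusters were described across 18 whole-transcript Affymetrix arrays of human umbilical vein endothelial cells (HUVEC), cultured cells of a vein lining. The members were all probe sets whose 1 gene symbol starts with SNORD and a digit, leaving out the imprinted families SNORD113 to SNORD116, with the brightest probe set kept for each symbol. This gave 69 genes of the 18417 measured. The arrays formed 6 groups of 3. Untreated HUVEC received nothing, and no time is given for them. The bead group received beads with immunoglobulin G (IgG) only for 3 days. The other 4 groups were co-cultured for 3 days with extracellular vesicles (EVs) that had been captured from T cell conditioned medium through CD63, a tetraspanin of vesicle membranes, or through MHC class 1 (MHC1), which displays peptides on the cell surface. Their source was either Jurkat, a wild-type T cell line from a human leukaemia, or its derivative JinB8, which is deficient in the receptor CD47. All 18 samples were HUVEC of normal genotype. Conditioned media were pooled before EVs were purified, so the arrays of 1 EV group may share 1 preparation. The free text of 5 of the 6 JinB8 samples gives other numbers after the JinB stem, but their bracketed names all say JinB8, and they were used as such.

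The labels do not say whether the arrays of a group are separate cultures, and p-values here describe only how far these arrays spread, which can be technical. Sample names number the arrays of a group consecutively, and a batch that follows that order cannot be told apart from the group. In 16 of the 18 arrays the 10 endothelial markers were at list means of 9.59 to 9.92 on the log2 RMA scale, among them the cadherin CDH5 and the growth factor receptor KDR. Untreated replicate 3 and bead replicate 3 stood apart: their endothelial list means lay between 6.11 and 7.04, their median correlations with the remaining arrays were 0.649 and 0.636, and the C/D box members averaged between 4.88 and 5.14 there, with 5.62 to 6.94 elsewhere. Counts of members called in each comparison are therefore given for all 18 arrays and for the 16 concordant ones. Several other results are given for the 16 alone, among them those by signal and length and most of those by host. Jurkat MHC1+ replicate 1 was intermediate, with a median correlation of 0.947 and the lowest member mean of the 16, 5.62, and counts without it are given for 15 arrays.

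C/D box snoRNAs are short RNAs of the nucleolus named for their conserved C and D motifs. Most pair with a stretch of ribosomal RNA and direct the methyltransferase fibrillarin to add a methyl group to the ribose at the paired site, a few are needed for cleavage or acetylation of the ribosomal precursor, and some guide modification of the spliceosomal U6 RNA. In human cells nearly all are cut from introns of host genes, many of which encode ribosomal proteins or are spliced noncoding RNAs such as GAS5 and the SNHG genes. By position in RefSeq's gene table, 67 of the 69 members lay within the span of another gene, in 41 different hosts, and SNORD13 and SNORD32B lay in none. Strand is not in that table, so a containing gene need not be transcribed together with the snoRNA.

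Many snoRNA hosts start transcription at a C followed by pyrimidines, the pattern of translation-related genes known as a 5′ terminal oligopyrimidine tract. RefSeq's promoter windows (GRCh38.p14, 250 bases before to 50 after each start) covered 34 of the 41 hosts, and 13 of them had a C and at least 4 further C or T letters, on the transcribed strand, exactly at a listed start. Counted by window, 13 of the 41 windows of these hosts had it, or 31.7%, against 4.07% of all 35116 windows. The 30 bases around the start are shown for the 6 hosts with a window among the 10 hosts of members that rose against beads in the 16 arrays (given later), from 10 bases before the start. Capitals mark the unbroken run of C and T from the first transcribed base where the pattern is met; it is met in 3 of the 6.
RPL13A: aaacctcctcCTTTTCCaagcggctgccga
EEF2: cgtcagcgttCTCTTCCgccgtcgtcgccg
RPL21: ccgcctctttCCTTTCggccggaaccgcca
GAS5: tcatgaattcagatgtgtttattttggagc
HSPA9: ggaggtttccagaagcgctgccgccaccgc
SNHG16: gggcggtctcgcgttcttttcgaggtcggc
These windows are at chr19:49487598-49487627 (plus strand) for RPL13A, the host of SNORD35A, chr19:3985444-3985473 (minus strand) for EEF2, the host of SNORD37, and chr13:27251548-27251577 (plus strand) for RPL21, the host of SNORD102. Those of GAS5, the host of SNORD79, HSPA9, the host of SNORD63, and SNHG16, the host of SNORD1B, are at chr1:173869026-173869055 (minus strand), chr5:138575382-138575411 (minus strand) and chr17:76557754-76557783 (plus strand). A match describes these letters only, and the lack of one describes only the listed start, which need not be the start most used. A host shown without the pattern, such as GAS5, may therefore still have it at another start. The 21 members of hosts with a match at a listed start had a median difference of 0.95 (log2, JinB8 MHC1+ minus beads, 16 arrays). The 33 members of hosts with a window but no such match had 0.70, a description with no test.

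The C/D box members were highest in cells given MHC1+ EVs of JinB8. Averaged over the 69 members, the 3 JinB8 MHC1+ arrays read 6.89 ± 0.06 (SD, n = 3), above 6.17 ± 0.12 with JinB8 CD63+ EVs, 6.17 ± 0.04 with Jurkat CD63+ EVs and 5.98 ± 0.32 with Jurkat MHC1+ EVs. The controls read 5.78 ± 0.56 with beads and 5.73 ± 0.74 untreated, or 6.09 and 6.15 over their 2 concordant arrays. JinB8 MHC1+ had the highest group mean of the 6 for 58 of the 69 members over the 16 arrays, and Jurkat MHC1+ had the lowest for 30. The share of all genes is not given for these counts. The Jurkat MHC1+ means include the intermediate replicate 1, whose member mean was 5.62, with 6.24 and 6.08 in replicates 2 and 3. For 36 of the 69 members every JinB8 MHC1+ array was above all 15 others, a pattern shown by 2.57% of all genes. Against the 13 other concordant arrays the count was 39, with 2.78% of all genes. Over all probe sets the 3 JinB8 MHC1+ arrays had medians of 4.86 to 4.89. The 13 other concordant arrays had higher medians, 4.90 to 5.13. The SDs were 2.21 to 2.25 and 2.01 to 2.22, and these ranges overlapped. With each array's SD as a covariate 26 members were called against beads in the 16 arrays. The share of all genes called is not given for this covariate or after centring on array medians, so no excess is read from such counts. Centring moved the members' median difference from beads in the 18 arrays from 1.17 to 1.36. The direction was not the same in each comparison. With the SD covariate fewer members were called against Jurkat MHC1+ and against JinB8 CD63+ EVs in the 16 arrays. Centring lowered the 18-array count against Jurkat MHC1+ EVs and raised that against JinB8 CD63+ EVs (counts are given in the closing sections). The remaining 5 groups overlapped in the member mean once the 2 discordant arrays were left out. In these bulk samples fewer cells of a type and less RNA per cell cannot be told apart. Levels of different probe sets were not compared with each other, since a probe set's signal (member means of 2.97 to 12.59 over the 16 arrays) also depends on its probes.

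**Figure D1:**
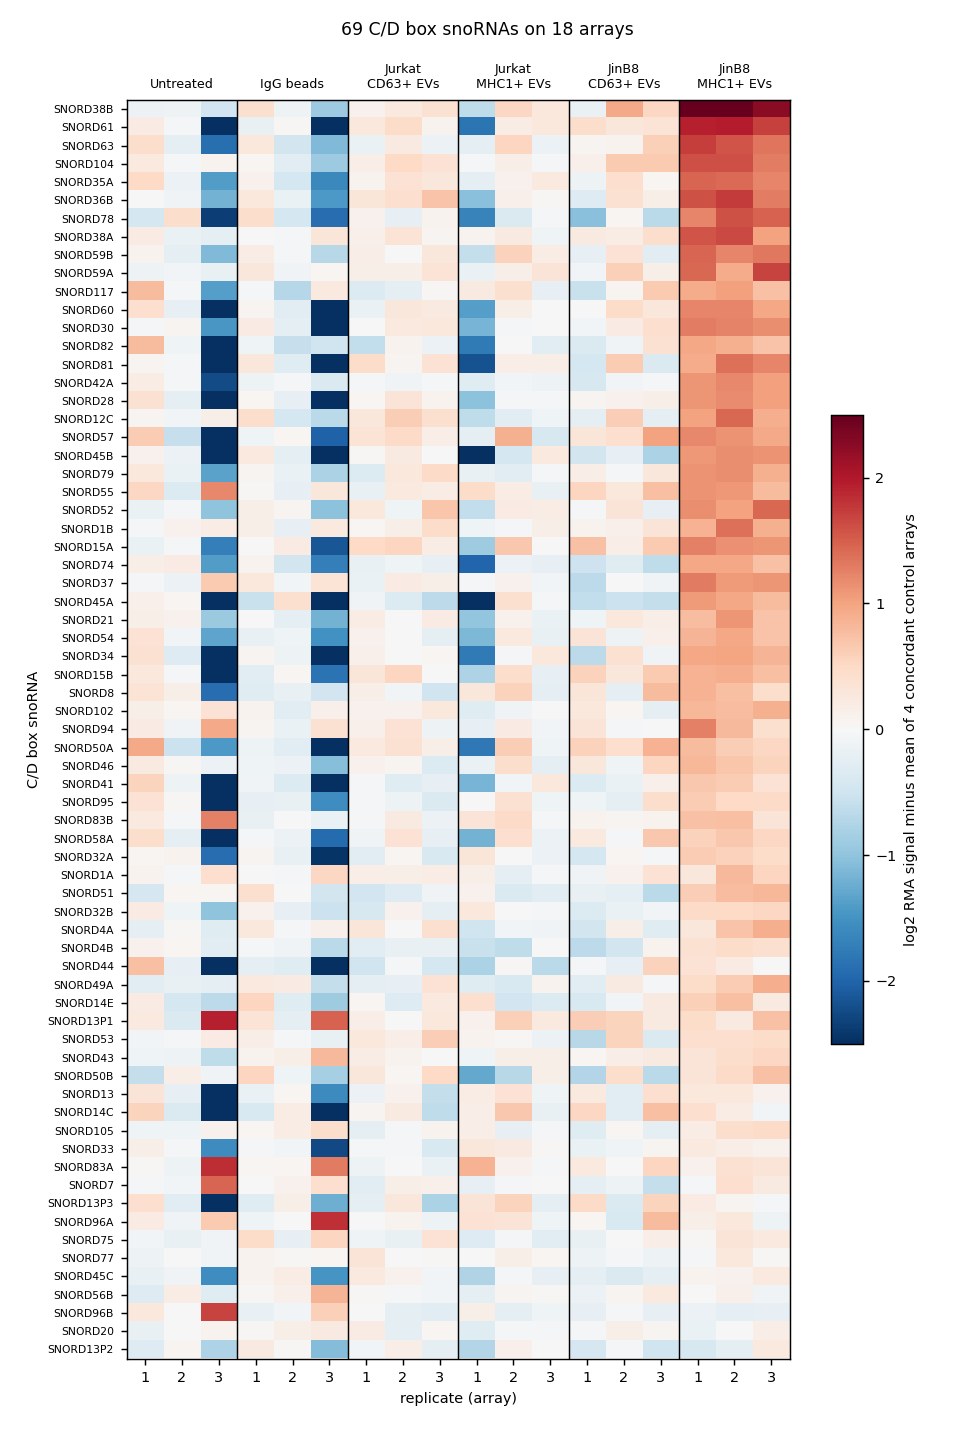
Colour gives the log2 RMA signal of each of the 69 members (rows) on each of the 18 arrays (columns, 3 per group), minus the mean of the 4 concordant control arrays; differences beyond 2.5 take the end colour and rows are ordered by the JinB8 MHC1+ minus bead difference. The 3 JinB8 MHC1+ columns are red for most rows, the third untreated and bead columns depart in both directions, and the first Jurkat MHC1+ column is blue for many rows.

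With MHC1+ EVs of JinB8 against IgG beads, 3 members rose in the 18 arrays and none fell: SNORD38B, SNORD104 and SNORD38A. The background was 8 higher genes of 18417, or 0.0434%, and the 3 members are among these 8. SNORD38B, which guides a methylation of large-subunit ribosomal RNA, read 6.83, 6.68 and 6.41 with JinB8 MHC1+ EVs. It read 4.56, 4.05 and 3.26 with beads and 4.02, 4.03 and 3.68 untreated. With the other EVs it read 4.27, 4.41 and 4.54 (Jurkat CD63+), 3.53, 4.69 and 4.42 (Jurkat MHC1+) and 4.0, 5.12 and 4.67 (JinB8 CD63+). No array of another group exceeded 5.12, and the lowest JinB8 MHC1+ array was at 6.41. The group mean went from 3.95 ± 0.65 with beads to 6.64 ± 0.21 (SD, n = 3 each), a rise of 2.69 ± 0.36 (SE; 6.44-fold; limma adjusted p = 0.0125) in the 18 arrays and of 2.34 ± 0.32 (adjusted p = 0.00459) in the 16.

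SNORD38A, which is close to SNORD38B in sequence, read 5.83, 5.90 and 5.26 on the JinB8 MHC1+ arrays. The bead arrays were at 4.26, 4.21 and 4.55 and the untreated arrays at 4.46, 4.08 and 4.03. Jurkat EVs gave 4.38, 4.60 and 4.32 for CD63+ and 4.34, 4.48 and 4.14 for MHC1+, and JinB8 CD63+ EVs gave 4.47, 4.45 and 4.69. These 15 arrays spanned 4.03 to 4.69 and none overlapped with JinB8 MHC1+. The rise against beads was 1.32 ± 0.20 (SE; limma adjusted p = 0.0302) in the 18 arrays and 1.43 ± 0.19 (adjusted p = 0.00459) in the 16. Probes of such similar copies can share signal, so how much of the pair's rise belongs to each is uncertain. SNORD104, a guide for large-subunit ribosomal RNA within SNHG25, read 8.62, 8.62 and 8.30 with JinB8 MHC1+ EVs, against 7.05, 6.75 and 6.10 with beads and 7.26, 6.97 and 7.10 untreated. The Jurkat arrays read 7.17, 7.5 and 7.36 (CD63+) and 6.95, 7.16 and 6.96 (MHC1+), and the JinB8 CD63+ arrays 7.14, 7.66 and 7.67. The lowest JinB8 MHC1+ array, at 8.30, was above the highest of the other 15, at 7.67. SNORD104 rose by 1.88 ± 0.23 (3.68-fold; limma adjusted p = 0.00896) in the 18 arrays and by 1.61 ± 0.18 (adjusted p = 0.00152) in the 16.

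In the 16 arrays 11 members rose against beads and none fell, where 0.195% of all genes were higher: the 3 above and SNORD1B, SNORD35A, SNORD37, SNORD42A, SNORD59A, SNORD63, SNORD79 and SNORD102. SNORD42A, a guide for small-subunit ribosomal RNA in RPL23A, was at 8.12, 8.21 and 8.03 with JinB8 MHC1+ EVs and at 6.89, 6.97 and 6.65 with beads. Its untreated values were 7.20, 6.98 and 4.78, and the Jurkat EV groups read 6.97, 6.92 and 6.97 (CD63+) and 6.70, 6.94 and 6.88 (MHC1+). The JinB8 CD63+ arrays read 6.61, 6.94 and 6.96. The 13 other concordant arrays lay between 6.61 and 7.20, a narrow band below all 3 JinB8 MHC1+ arrays. The rise was 1.19 ± 0.14 (SE; limma adjusted p = 0.00152) in the 16 arrays, and 1.28 ± 0.43 (adjusted p = 0.462) in the 18, with untreated replicate 3 at 4.78.

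SNORD35A, a guide for large-subunit ribosomal RNA in RPL13A, was at 9.23, 9.20 and 9.0 with JinB8 MHC1+ EVs, 7.88, 7.33 and 6.17 with beads and 8.28, 7.62 and 6.38 untreated. Jurkat CD63+ EVs gave 7.86, 8.13 and 8.05, Jurkat MHC1+ EVs 7.53, 7.89 and 8.02 and JinB8 CD63+ EVs 7.66, 8.2 and 7.82. No other array exceeded 8.28, and the lowest JinB8 MHC1+ array was at 9.0. Its difference from beads was 1.54 ± 0.22 (SE; limma adjusted p = 0.00697) in the 16 arrays and 2.02 ± 0.43 (adjusted p = 0.271) in the 18. SNORD63, a guide for large-subunit ribosomal RNA in HSPA9, which encodes a mitochondrial chaperone, was at 7.77, 7.61 and 7.39 with JinB8 MHC1+ EVs. It was at 6.30, 5.59 and 4.95 with beads and 6.47, 5.82 and 4.17 untreated, and at 5.88, 6.26 and 5.90 and 5.82, 6.58 and 5.90 with Jurkat CD63+ and MHC1+ EVs. JinB8 CD63+ EVs gave 6.12, 6.14 and 6.65, so the groups did not overlap with JinB8 MHC1+ here either. SNORD63 differed from beads by 1.65 ± 0.27 (limma adjusted p = 0.0192) in the 16 arrays and by 1.98 ± 0.47 (adjusted p = 0.436) in the 18. The remaining 5 of the 11 rose by 0.93 (SNORD102, adjusted p = 0.0217) to 1.26 (SNORD59A, adjusted p = 0.0299) in the 16 arrays. Of the 11, 4 had a mean signal under 4 over the 13 other concordant arrays. SNORD102 and SNORD1B were at means of 3.34 and 3.40 over the 16 arrays. Whether either was above background outside JinB8 MHC1+ is not known, and the size of their differences carries that limit.

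**Figure D2:**
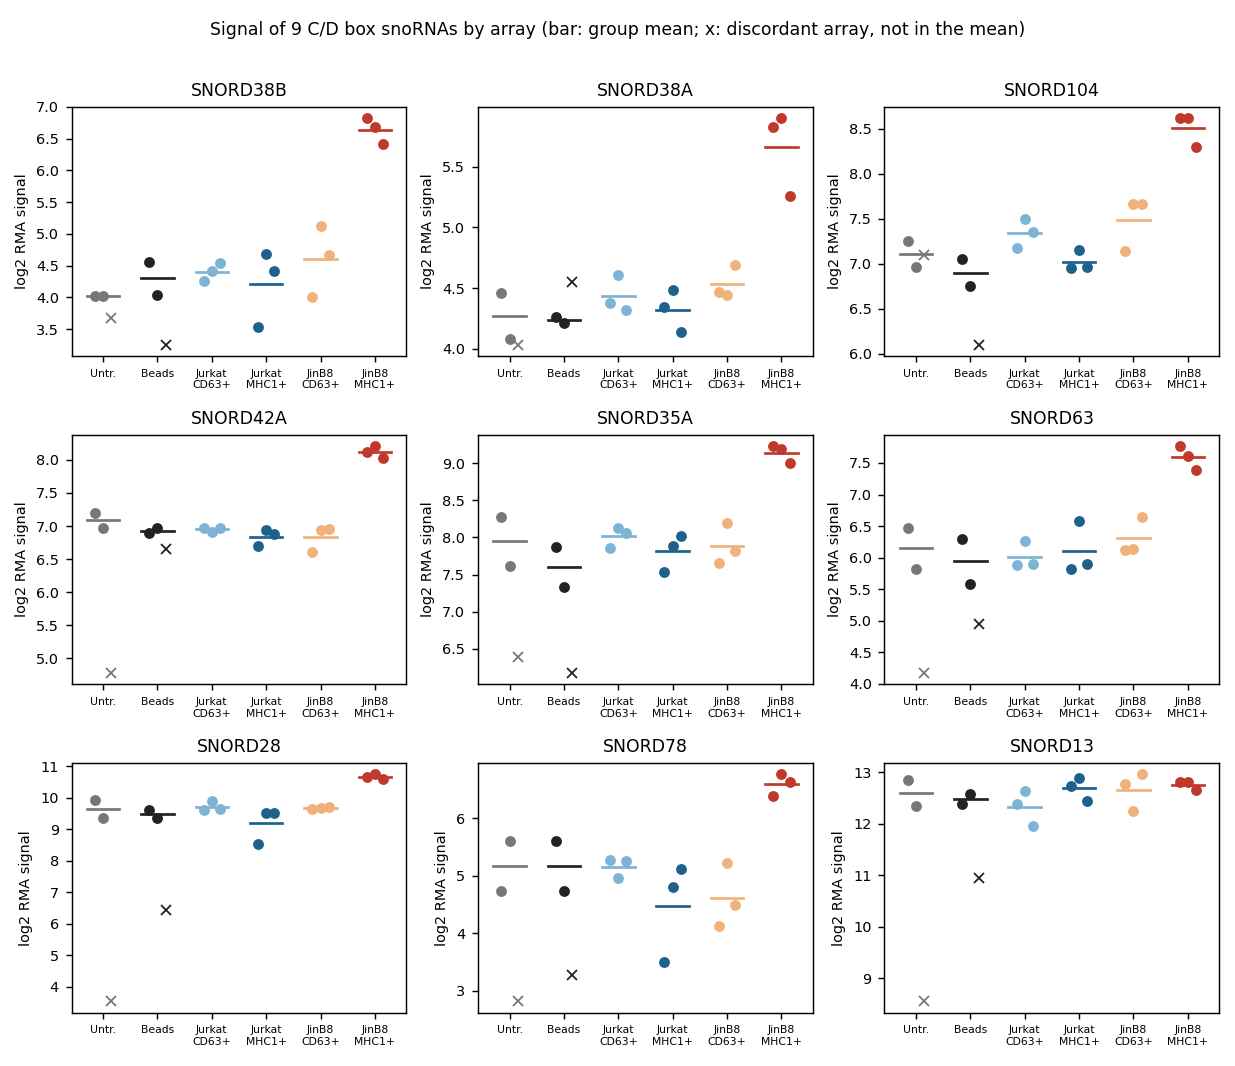
Each panel plots the log2 RMA signal of 1 C/D box snoRNA by group; points are arrays, bars are group means, and crosses are the 2 discordant control arrays, which are left out of the bars. In 8 panels the 3 JinB8 MHC1+ points lie above all other points, and in the SNORD13 panel they lie within the range of the other groups.

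The median difference of all 69 members against beads was 1.17 (log2) in the 18 arrays, with 62 members above 0 and a median of -0.09 over all genes. In the 16 arrays it was 0.88, with 65 above 0 and a median of -0.02 over all genes. At an unadjusted p under 0.05, 39 members passed in the 18 arrays and 44 in the 16. The share of all genes at that threshold is not given here, so no excess is read from these or later counts of this kind. The count of 3 in the 18 arrays went to 0 without JinB8 MHC1+ replicate 1 or 2, to 1 without bead replicate 2 and to 7 without untreated replicate 3. The count of 11 in the 16 arrays went to 0 without bead replicate 2, 5 without bead replicate 1, 6 without JinB8 MHC1+ replicate 1 or 2, 7 without its replicate 3 and 26 without Jurkat MHC1+ replicate 1. With untreated cells as the control the counts were 4 and 11. The share of all genes called is not given for that control. A fit of only the bead and JinB8 MHC1+ arrays called 0 members, and 0 of all 18417 genes.

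MHC1+ EVs of JinB8 were next set against MHC1+ EVs of Jurkat, which differ in the T cell line the EVs came from. The same 3 members rose in the 18 arrays (0.0326% of all genes were higher), and 22 rose and none fell in the 16 (0.38% of all genes). The 22 held all 11 that rose against beads. The other 11 were SNORD12C, SNORD21, SNORD28, SNORD30, SNORD36B, SNORD51, SNORD52, SNORD59B, SNORD60, SNORD61 and SNORD78. SNORD38B differed by 2.43 ± 0.36 (SE; limma adjusted p = 0.0406) in the 18 arrays and by 2.43 ± 0.28 (adjusted p = 0.00122) in the 16. SNORD104 differed by 1.49 ± 0.16 and SNORD42A by 1.28 ± 0.12 in the 16 arrays (adjusted p = 0.000691 and 0.000186). SNORD78, 1 of the guides in GAS5, was at 6.39, 6.77 and 6.64 with JinB8 MHC1+ EVs and 3.50, 4.80 and 5.12 with Jurkat MHC1+ EVs. It was at 5.60, 4.73 and 3.26 with beads, 4.73, 5.61 and 2.82 untreated, 5.27, 4.96 and 5.26 with Jurkat CD63+ EVs and 4.13, 5.23 and 4.50 with JinB8 CD63+ EVs. All 3 JinB8 MHC1+ arrays were the highest of the 18, and the lowest concordant array was Jurkat MHC1+ replicate 1 at 3.50. SNORD78 differed by 2.13 ± 0.38 (limma adjusted p = 0.0215) between the MHC1+ groups in the 16 arrays. SNORD28, a guide for small-subunit ribosomal RNA in SNHG1, was at 10.67, 10.74 and 10.59 with JinB8 MHC1+ EVs and 8.54, 9.51 and 9.51 with Jurkat MHC1+ EVs. Its other values were 9.61, 9.35 and 6.42 with beads, 9.94, 9.35 and 3.54 untreated, 9.62, 9.89 and 9.64 with Jurkat CD63+ EVs and 9.63, 9.66 and 9.72 with JinB8 CD63+ EVs. SNORD28 differed by 1.48 ± 0.22 (limma adjusted p = 0.00653) in the 16 arrays, with the 2 discordant arrays at 3.54 and 6.42.

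The members' median difference between the 2 MHC1+ groups was 0.90, with 63 of the 69 above 0 and a median of -0.06 over all genes. Among the 11 members called here and not against beads, SNORD61, a small-subunit guide in RBMX, had the largest difference in the 16 arrays, 2.32 ± 0.38 (limma adjusted p = 0.0115). Its Jurkat MHC1+ arrays read 5.11, 7.11 and 7.20 and its JinB8 MHC1+ arrays 8.87, 8.89 and 8.63. Jurkat MHC1+ replicate 1 was the low array for several of these members. Without it, in 15 arrays, 24 members were called. In the 16 arrays the count was 10, 9 and 14 without JinB8 MHC1+ replicate 1, 2 and 3, and 42 without Jurkat MHC1+ replicate 3. In the 18 arrays the count of 3 was 0 without bead replicate 2, JinB8 CD63+ replicate 3, JinB8 MHC1+ replicate 1 or 2, any 1 of the 6 Jurkat arrays or untreated replicate 1 or 2. It was 1 without JinB8 CD63+ replicate 1 or 2 or JinB8 MHC1+ replicate 3.

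MHC1+ and CD63+ EVs of the same JinB8 cells were compared to set the capture marker apart from the cell line. No member was called in the 18 arrays, where 0.00543% of all genes were higher by limma and 26 members had an unadjusted p under 0.05. In the 16 arrays 12 members were higher with MHC1+ EVs and none lower, against 0.174% of all genes: SNORD1B, SNORD35A, SNORD36B, SNORD37, SNORD38A, SNORD38B, SNORD42A, SNORD51, SNORD59A, SNORD59B, SNORD102 and SNORD104. SNORD42A differed by 1.28 ± 0.12 (SE; limma adjusted p = 0.000277), SNORD37, a guide in EEF2, by 1.40 ± 0.17 (adjusted p = 0.00194), and SNORD38B by 2.04 ± 0.28 (adjusted p = 0.00669). SNORD37 read 5.24, 5.02 and 5.05 with JinB8 MHC1+ EVs and 3.29, 3.95 and 3.86 with JinB8 CD63+ EVs. Beads gave 4.21, 3.87 and 4.28, no treatment 3.89, 3.80 and 4.60, and the Jurkat EVs 3.77, 4.15 and 4.09 (CD63+) and 3.91, 4.05 and 3.88 (MHC1+), all below JinB8 MHC1+. The median over the 69 members was 0.70 with 63 above 0. A total of 9 members were called in all 3 of these comparisons in the 16 arrays: SNORD1B, SNORD35A, SNORD37, SNORD38A, SNORD38B, SNORD42A, SNORD59A, SNORD102 and SNORD104. The 3 comparisons share the JinB8 MHC1+ arrays, so this count is no independent support.

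The count of 12 in the 16 arrays was 4, 24 and 5 without JinB8 CD63+ replicate 1, 2 and 3, and 2, 3 and 5 without JinB8 MHC1+ replicate 1, 2 and 3. It was 7 without either untreated array or without Jurkat CD63+ replicate 2 or 3, and 33 without Jurkat MHC1+ replicate 1. In the 18 arrays the count of 0 was 1 without bead replicate 3 and 2 without untreated replicate 3. A fit of the 6 JinB8 arrays alone called 20 members. The share of all genes called is not given for this fit or for the counts with single arrays left out, here and in the other comparisons. A change of calls over all genes is therefore not told apart from a change in the members.

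Whether the JinB8 minus Jurkat difference depended on the capture marker was tested as an interaction. No member and no gene (0%) was higher in the 18 arrays by limma, with 24 members at an unadjusted p under 0.05. In the 16 arrays SNORD42A was the 1 member called of 3 higher genes in all (0.0163%). Its JinB8 minus Jurkat difference was 1.28 for MHC1+ EVs and -0.11 for CD63+ EVs, an interaction of 1.39 ± 0.17 (SE; limma adjusted p = 0.00783). The median interaction over the 69 members was 0.88 with 60 above 0, beside -0.06 over all genes. The count was 0 without JinB8 MHC1+ replicate 2, 2 without its replicate 3, 3 without Jurkat CD63+ replicate 1 or Jurkat MHC1+ replicate 2, 9 without Jurkat MHC1+ replicate 1, 28 without JinB8 CD63+ replicate 2 and 34 without Jurkat MHC1+ replicate 3.

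Tested over all 6 groups at once with limma's F, 0 members were called in the 18 arrays, against 0.0109% of all genes, with 26 members at an unadjusted p under 0.05. The same test called 11 in the 16 arrays, against 0.233% of all genes. These were SNORD1B, SNORD35A, SNORD36B, SNORD37, SNORD38A, SNORD38B, SNORD42A, SNORD59A, SNORD63, SNORD102 and SNORD104. The remaining comparisons called no member by limma in the 18 or the 16 arrays. JinB8 CD63+ EVs against beads gave a member median of 0.28 in the 18 arrays and 0.14 in the 16, with 4 and 5 members at an unadjusted p under 0.05 and 0.00543% and 0.0923% of all genes called. Jurkat CD63+ EVs against beads gave 0.38 and 0.08, with 3 and 2 such members and 0.00543% of all genes called in both sets of arrays. Jurkat MHC1+ EVs against beads gave 0.13 and -0.11, with 1 such member in each and 0% of all genes. The bead minus untreated medians were 0.07 and -0.10, with 3 and 0 such members and 0% of all genes. For JinB8 minus Jurkat within CD63+ the median was 0.01, with 0 and 3 such members and 0% of all genes. For MHC1+ minus CD63+ within Jurkat it was -0.17, with 2 and 10 such members and 0% and 0.00543% of all genes. The 4 comparisons with beads share the bead arrays, and bead replicate 3 is 1 of the discordant ones.

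Members that share a host had a range of differences, which were not tested against each other. Of the 14 hosts with 2 or more members, which held 40 members, all members lay above 0 against beads in the 16 arrays in 13, the exception being NCL (nucleolin) through SNORD20. SNORD20 and SNORD77 of GAS5 had a mean signal of 3.03 over the 16 arrays, with 1.31% and 1.33% of all genes at or below them. Whether either was above background is not known, so nothing is read from the sign or size of their differences. The count of 13 depends on these signs for NCL and GAS5, and for RABGGTB on a difference of 0.01 (SNORD45C), so it carries the same limit. In RPL13A, a large-subunit ribosomal protein gene, SNORD35A differed from beads by 1.54 ± 0.22 (SE), SNORD34 by 0.96 ± 0.44, SNORD32A by 0.62 ± 0.18 and SNORD33 by 0.22 ± 0.14, with SNORD35A called. SNORD33 read 12.64, 12.56 and 12.49 with JinB8 MHC1+ EVs, 12.36, 12.32 and 10.14 with beads and 12.68, 12.61 and 12.42 with Jurkat MHC1+ EVs. Its JinB8 MHC1+ arrays overlapped with those of Jurkat MHC1+.

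GAS5, a noncoding host whose spliced RNA turns over quickly in growing cells, held 7 members. SNORD78 (1.44 ± 0.42), SNORD81 (1.20 ± 0.53), SNORD79 (1.11 ± 0.21) and SNORD74 (1.07 ± 0.38) stood above all 15 other arrays on every JinB8 MHC1+ array, and SNORD79 was the 1 called against beads. SNORD44 (0.47 ± 0.30), SNORD75 (0.07 ± 0.20) and SNORD77 (0.02 ± 0.13) did not stand above them; SNORD75 was at -0.07 in the 18 arrays. In SNHG1, SNORD28 and SNORD30 differed by 1.18 and 1.24, and in ATP5F1B, which encodes a subunit of the mitochondrial ATP synthase, SNORD59A and SNORD59B by 1.26 and 1.27. In RABGGTB, SNORD45A and SNORD45B differed by 1.02 and 1.12 and SNORD45C by 0.01 (0.55 in the 18 arrays). In NCL, SNORD82 differed by 1.20. SNORD38A and B, SNORD45A to C, SNORD59A and B, SNORD15A and B, SNORD32A and B, SNORD96A and B and the SNORD13 copies are near relatives whose probes can share signal, so differences between them are uncertain.

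**Figure D3:**
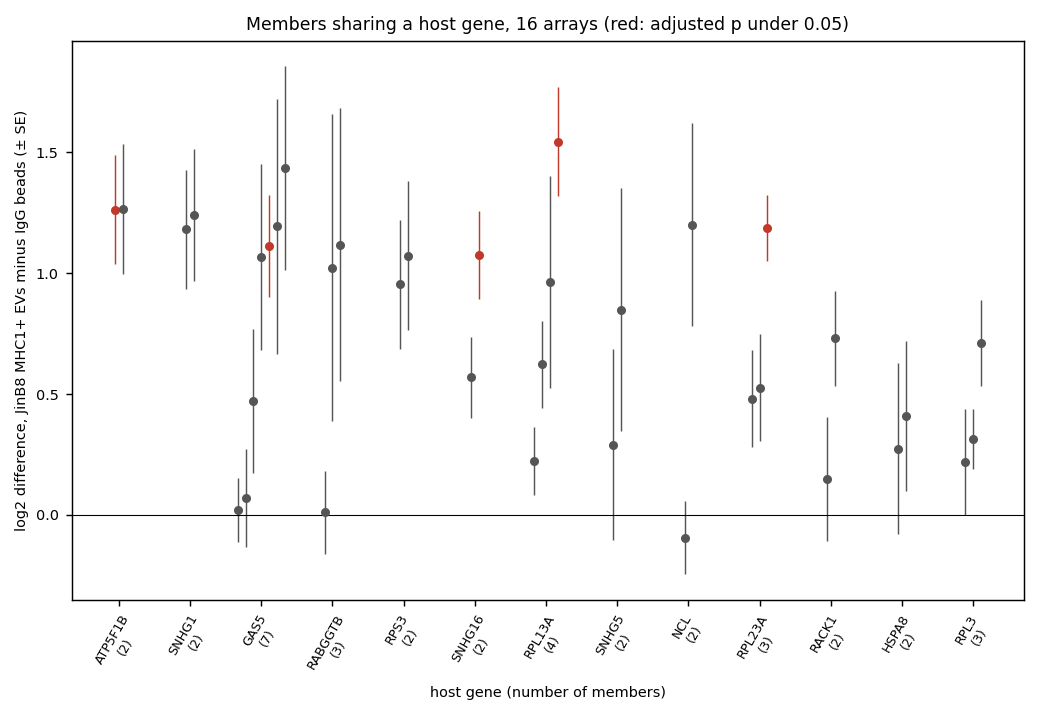
Points give the log2 difference (± SE, limma) between JinB8 MHC1+ EVs and IgG beads in the 16 concordant arrays for each C/D box snoRNA of 13 of the 14 hosts with at least 2 members; red points are called at an adjusted p under 0.05. Members of 1 host spread from 0.22 to 1.54 in RPL13A, and the lowest GAS5 point is SNORD77, whose signal was near the bottom of the scale on every array.

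The 6 measured members known for roles other than ribosomal methylation were not called against beads, where 0.195% of all genes were higher in the 16 arrays, so a count of 0 of 6 is near the background. Of the 14 listed RNAs of ribosomal precursor processing (the RNAs long known under U names, such as U13 and U14), 3 were measured with 1 symbol. SNORD13, which pairs with small-subunit ribosomal RNA and is needed for its acetylation, read 12.80, 12.81 and 12.65 with JinB8 MHC1+ EVs and 12.37, 12.58 and 10.94 with beads. It read 12.85, 12.34 and 8.55 untreated, 12.39, 12.64 and 11.94 and 12.73, 12.89 and 12.44 with Jurkat CD63+ and MHC1+ EVs, and 12.77, 12.24 and 12.96 with JinB8 CD63+ EVs. Its groups overlapped, and the difference from beads was 0.28 ± 0.23 (SE; limma adjusted p = 0.999) in the 16 arrays. The 2 measured copies of U14, needed for early cleavage of the precursor and hosted by the chaperone gene HSPA8, differed by 0.27 ± 0.35 (SNORD14C) and 0.41 ± 0.31 (SNORD14E). Of 5 listed guides of U6 RNA 3 were measured: SNORD8 differed by 0.93 ± 0.28, SNORD94 by 0.88 ± 0.22 and SNORD7 by 0.16 ± 0.18 (adjusted p = 0.426, 0.238 and 0.999). Their median, 0.88, is the value of SNORD94, which is also the median of all 69 members, so the match is no comparison of separate sets. The guides' mean per array was 5.85 to 6.20 with JinB8 MHC1+ EVs. On the 13 other concordant arrays it was 5.33 to 5.74, with no overlap. None of the 3 guides alone stood above all 15 other arrays on every JinB8 MHC1+ array. The members below 0 in the 16 arrays were SNORD13P2 (-0.27, but 0.14 in the 18 arrays), SNORD20 (-0.09, but 0.058 in the 18 arrays after centring), SNORD96B (-0.07) and SNORD56B (-0.06), each with an adjusted p of 0.999.

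Differences were also set beside signal and length. By mean signal over the 13 other concordant arrays, the 16 members under 4 had a median difference from beads of 0.46 in the 16 arrays, the 21 between 4 and 6 had 0.98, the 20 between 6 and 8 had 1.1, the 6 between 8 and 10 had 0.73 and the 6 above 10 had 0.45. The members were 60 to 205 bases long in RefSeq, with a median of 75. The longest was SNORD13P2, a copy of SNORD13, and the next longest, SNORD15A, had 148 bases. Both enter the values by length. The 13 of under 70 bases had a median difference of 0.98, the 31 of 70 to 79 bases 0.93 and the 25 longer ones 0.71, and across the 69 members Pearson's r with length was -0.21 (Spearman's rho -0.16), a description over members that share arrays and hosts.

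Most host genes differed less than their snoRNAs once the discordant arrays were left out. For 35 members the host had a probe set of its own, which gave 25 hosts, and none of the 25 was called in the 3 JinB8 MHC1+ comparisons. Against beads in the 16 arrays the median difference of these 35 members was 0.71 and that of the 25 hosts 0.17, and the member exceeded its host in 31 of 35 pairs. SNORD63 differed by 1.65 ± 0.27 (SE) and its host HSPA9 by 0.05 ± 0.20. SNORD42A differed by 1.19 ± 0.14 and RPL23A by 0.27 ± 0.18, SNORD37 by 1.06 ± 0.19 and EEF2 by 0.17 ± 0.13, and SNORD82 by 1.20 ± 0.42 and NCL by -0.37 ± 0.14. In the 18 arrays, where bead replicate 3 also enters, the hosts' median was 0.98, the members' 0.98, and the member exceeded its host in 14 of 35 pairs. In JinB8 minus Jurkat within MHC1 it did so in 29 of 35 pairs (medians 0.86 and 0.28), and in MHC1 minus CD63 within JinB8 in 28 (0.68 and 0.26). The differences of member and host were not tested against each other, and several hosts, among them GAS5 and RPL13A, had no probe set with 1 symbol.

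**Figure D4:**
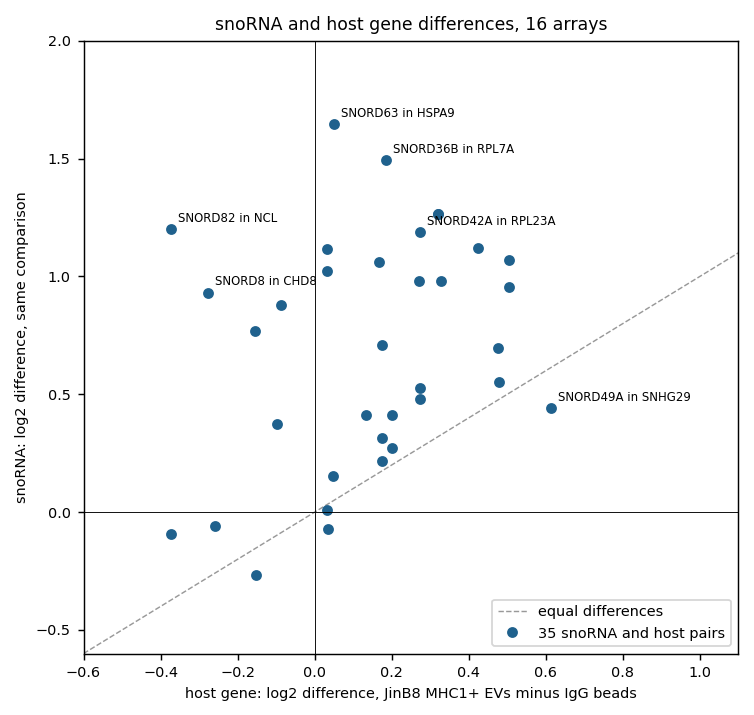
Each point is a C/D box snoRNA and its host gene; the horizontal axis gives the host's and the vertical axis the snoRNA's log2 difference between JinB8 MHC1+ EVs and IgG beads in the 16 concordant arrays, and the dashed line marks equal differences. Of the 35 points 31 lie above the line, and host differences stay between -0.37 and 0.61.

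The proteins that assemble on C/D box snoRNAs were not called. Of 5 proteins listed as core, counting RRP9, a partner of U3, 3 had a probe set with 1 symbol. In the 16 arrays fibrillarin (FBL), the methyltransferase, differed from beads by 0.05 ± 0.17 (SE). NOP58, a scaffold of the particle, differed by -0.06 ± 0.41, and RRP9 by -0.08 ± 0.16. RRP9 is not part of every C/D box particle, so medians of this list mix it with the shared core. The 13 assembly factors, among them the ATPases RUVBL1 and RUVBL2 and the platform protein NUFIP1, had a median of 0.05 with 7 above 0, and 0 of 13 were called. In the 18 arrays these medians were 0.67 and 0.59, again with none called. In the other JinB8 MHC1+ comparisons the assembly factors lay on the same side as the members: all 13 were above 0 against Jurkat MHC1+ EVs (median 0.37), against JinB8 CD63+ EVs (0.31) and in the interaction (0.67), where the medians over all genes were -0.06, -0.03 and -0.06, and none of the 13 was called. The 3 measured proteins of the core list, RRP9 among them, had medians of 0.39, 0.23 and 0.50 there, with 2 of 3 above 0 in each and none called.

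Other short nuclear RNAs are given beside the members by count and median against beads in the 16 arrays, where 0.195% of all genes were higher. The 77 H/ACA box and Cajal body RNAs, the pseudouridylation guides and their relatives, had a median of 0.90 with 15 higher and none lower, and 39 of the 77 stood above all 15 other arrays on every JinB8 MHC1+ array. SNORA38B had the smallest adjusted p among them (difference 2.20 ± 0.18; limma adjusted p = 6.57e-05). Of 7 measured RNAs of vault, Y and RNase particles 4 were higher, with a median of 0.86: VTRNA1-1 by 2.45 ± 0.33, VTRNA1-2 by 1.30 ± 0.21, VTRNA1-3 by 1.36 ± 0.23, all RNAs of the vault particle, and RMRP, the RNA of RNase MRP, by 0.86 ± 0.15. The 15 RNU spliceosomal RNAs had a median of 0.24 with 1 higher, RNU4ATAC of the minor spliceosome. The 46 imprinted C/D box copies of SNORD113 to SNORD116 had a median of 0.06 with none called, and 2 of the 46 stood above all 15 other arrays. The 189 microRNA precursors had a median of -0.06, none called and none above. The 65 ribosomal protein genes had a median of 0.40 with none called, and 27 of them stood above all 15 other arrays. In the 18 arrays, where 0.0434% of all genes were higher, the H/ACA and Cajal body median was 0.89 with 4 higher. The vault, Y and RNase median was 0.93 with 1 higher. No gene of the other lists was called there, and their medians were 0.37 (RNU), -0.06 (imprinted), -0.32 (microRNA precursors) and 1.14 (ribosomal protein). The last lay near the members' 1.17 in the 18 arrays. All of these values come from the arrays that also gave the members' values. The series design and the sample labels name different RNA kits, and the part of short-RNA recovery in these results was not tested.

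Markers of other cells were followed because the EVs came from T cells. The 9 measured T cell markers, among them the CD3 chains and LCK, had list means of 3.72 to 3.76 on the JinB8 MHC1+ arrays, against 3.71 to 4.19 on the 13 other concordant arrays, so they were no higher there. The mean of single markers over the 16 arrays ran from 3.09 (PTPRC) to 4.64 (LCK), near the low end of the scale, and 0 of the 9 stood above all 15 other arrays. The 8 fibroblast and smooth muscle markers had list means of 4.33 to 4.39 with JinB8 MHC1+ EVs and 4.28 to 5.10 on the 13. The 10 endothelial markers had 9.70 to 9.78 there and 9.59 to 9.92 on the 13, and their median difference from beads was -0.11 in the 16 arrays and 1.38 in the 18. In the 2 discordant arrays the T cell list was at 4.80 and 4.87, and the microRNA precursors were at 4.92 and 4.97, with 4.01 to 4.39 elsewhere.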

How the data were processed

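HUVEC RNA was measured on 18 arrays. RMA in Affymetrix Expression Console is named in the submitters' processing notes (versions not given in the sources used here), and the authors' deposited values were taken as log2 RMA signal, a scale read from their range. How many arrays each group holds sets the precision. Of 33297 probe sets, 19460 carried 1 gene symbol in the platform annotation, 1754 several and 12083 none. The brightest probe set over the 18 arrays was kept per symbol, which left 18417 genes. One mean per group was fitted with limma 3.58.1 in R 4.3.3 (lmFit, eBayes; all 18 arrays in the main analysis), with Benjamini-Hochberg adjustment over the 18417 genes, with calls at an adjusted p under 0.05. The script was tested on simulated data. Tables and plots used Python 3.11.15, pandas 2.3.3, numpy 2.4.6, scipy 1.17.1 and matplotlib 3.10.9. Host genes and starts came from RefSeq (GRCh38.p14). The array's own build is not given in the sources used here, and no mature snoRNA sequence was used.

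The members, lists and alternatives were chosen with earlier results of these data known. The 16-array fit was among the alternatives listed at the start; leaving out 1 of the 16 arrays in turn was added after seeing the data. Genes were named by rule: the 10 members with the largest difference among those called, the 5 with the smallest unadjusted p where fewer than 5 were called, the processing RNAs and U6 guides, hosts, core proteins, and up to 3 genes with the smallest p of each other list. The text gives a selection of these, and further members are named for their host or because a count of them is given. The values of 1 host are not reported here.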

Additional observations from a re-analysis of the deposited data

Results flagged for a closer look

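SNORD42A had a JinB8 minus Jurkat difference that was larger for MHC1+ than for CD63+ EVs. The interaction was 1.39 ± 0.17 on the log2 scale in the 16 concordant arrays (limma adjusted p = 0.00783), where it was the 1 member called. In all 18 arrays the estimate was the same and no member was called.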

How the results depend on the processing

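Each other setting, apart from leaving out 1 array, is named here where it moved a count of called members by over 1.5 times. The cause was not tested, and for most of these settings the share of all genes called is not given. Of the 22 members called in the 16 arrays in at least 1 JinB8 MHC1+ comparison 0 changed direction in any setting or comparison of the 3. Of 22 others given with a difference from beads, 7 did. For JinB8 MHC1+ EVs against beads (3 in the 18 arrays) the count was 11 in 16 arrays, 26 in 15 arrays, 26 in 16 arrays once each array's SD entered as a covariate and 0 with only the groups compared, and 0 to 7 when 1 array was left out. For JinB8 minus Jurkat within MHC1 (3) it was 22, 24 and 15, 1 after centring on array medians, 0 after quantile normalization again, and 0 to 4 when 1 array was left out. For MHC1 minus CD63 within JinB8 (0) it was 12, 33 and 5, 1 after centring, 1 after quantile normalization, 20 with only the groups compared, and 0 to 2 when 1 array was left out. For the interaction (0) it was 1, 9 and 1, and 1 with only the groups compared. For the F test (0) it was 11, 26 and 21, 1 after centring, and 0 to 2 when 1 array was left out. In the 16 arrays, leaving out 1 more gave 0 to 26, 9 to 42, 2 to 33, 0 to 34 and 1 to 26 members in the same order of comparisons. Centring moved the median of all genes against beads from -0.09 to 0.10 in the 18 arrays, and the members' median from 1.17 to 1.36. No paired analysis was possible because the labels give no replicate numbers that groups share. SNORD13P2 went from 0.14 in the 18 arrays to -0.27 in both 16 and 15 arrays and -0.41 with the SD covariate, and was -0.27 to 0.39 when 1 array was left out. SNORD75 went from -0.067 to 0.070 in both 16 and 15 arrays, 0.043 with the SD covariate, 0.22 after quantile normalization, 0.13 after centring and 0.31 with untreated cells as the control, and was -0.30 to 0.070 when 1 array was left out. SNORD20 went from -0.13 to 0.012 after quantile normalization, 0.058 after centring and 0.029 with untreated cells. With untreated cells SNORD7 went from 0.036 to -0.25 and SNORD56B from -0.31 to 0.17, and SNORD45C went from 0.55 to -0.045 with the SD covariate. When 1 array was left out SNORD7 was -0.071 to 0.16 and SNORD77 -0.063 to 0.084.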

Other observations

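A further 32 probe sets carried a SNORD symbol outside SNORD113 to SNORD116 together with at least 1 other symbol and are not members. Their median difference between JinB8 MHC1+ EVs and the 2 concordant bead arrays was 1.06 on the log2 scale, from -0.37 to 1.82, with 29 of 32 above 0. All 3 JinB8 MHC1+ arrays stood above the 15 others for 18 of the 32. No probe set of this kind was tested, since its signal cannot be assigned to 1 gene.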
